A study of Homo sapiens with 4 samples.

Results

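The genes of the extracellular matrix and of its integrin receptors were examined in LASCPC-01 cells, a human line of neuroendocrine prostate cancer (NEPC), after fluoxetine or PBS. The genes were chosen by symbol, as collagen chains, laminin chains, integrin alpha and beta subunits whose symbols end in a number or in V, L, M or X, and FN1, SPARC, TNC, THBS1, FBN1, VCAN, AGRN and HSPG2. This gave 87 of the 16376 genes listed. The rule uses symbols alone, although it was set with earlier results of these data known. Fold changes were computed for the 40 of them with a mean of at least 0.1 FPKM over the 4 libraries. COL12A1 was close above this minimum at a mean of 0.116 FPKM, and ITGA7 just below it at 0.0883 FPKM. ITGBL1 fits the pattern of symbols although it is not an integrin subunit, while the alpha subunits ITGAE and ITGA2B fall outside it. ITGAE, at a mean of 1.88 FPKM, and ITGA2B, at 0.00215 FPKM, are therefore not counted below.

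Each group held 2 libraries, labelled with the wild-type genotype at day 3, and by the labels the groups differed in treatment alone. PBS-treated cells were the control, and fluoxetine, an antidepressant that blocks serotonin reuptake, was given at 5 µM for 48 h, although the labels state day 3 and no dose. All 4 libraries came from the same engineered line, which carries NMYC and activated AKT1, so both groups share these oncogenes and the cells are a line in culture. The fluoxetine libraries bear PP in their titles, which the labels do not explain. No label ties the replicates to separate cultures, so that p-values measure only the spread between these libraries, which may be technical. FPKM is the number of sequenced fragments on a gene per kilobase of its length and scaled to the depth of the library. It allows levels to be compared between genes per length, and fewer cells with a transcript cannot be told apart from less of it per cell.

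The extracellular matrix is the network of secreted proteins on which epithelial cells sit and through which stromal cells are held. Its basement membrane is built from laminin trimers of an alpha, a beta and a gamma chain, from collagen IV, and from the proteoglycans agrin and perlecan, while fibrillar collagens and fibronectin form most of the interstitial matrix. Integrins are receptors of an alpha and a beta subunit that bind these proteins outside the cell and the cytoskeleton inside it, and most collagens need a complete set of their own chains to fold into a triple helix.

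The depth by which the values had been divided was between 32873603 and 34831389 fragments a library, and the reads solved on the listed genes came to between 27580257 and 29227066. The read numbers given here are the smallest whole numbers that fit the FPKM, so that a gene's true reads may be a multiple of them. NEPC genes were present in part. MYCN (mean of 361 FPKM), NCAM1 (48.6 FPKM) and INSM1 (22.9 FPKM) were high, whereas CHGA, CHGB and NEUROD1 had means below 0.1 FPKM and SYP lay between 0.142 and 0.629 FPKM. The epithelial genes EPCAM, KRT8, KRT18 and CDH1 were all high. Of 8 fibroblast markers only ACTA2 had a mean of at least 1 FPKM, at 4.39 to 5.86 FPKM, while PDGFRB and THY1 did not exceed 0.0104 FPKM and DCN did not exceed 0.212 FPKM. None of the 5 endothelial markers reached a mean of 1 FPKM, and among the leukocyte markers PTPRC did not exceed 0.0318 FPKM while CD68 lay between 2.74 and 3.97 FPKM. The summed fibroblast markers were 6.17 and 4.77 FPKM with PBS against 4.66 and 6.06 FPKM with fluoxetine, most of it ACTA2.

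Matrix and integrin genes of these cells were led by the receptors and the laminins of an epithelial basement membrane. ITGB1, the beta subunit shared by the largest number of integrins, had the highest mean at 81.9 FPKM, and ITGA3, which pairs with ITGB1 as a laminin receptor, followed at 80.1 FPKM. The library ranges of the pair overlapped, and both lay above LAMC1, the common laminin gamma chain, at 37.2 FPKM. AGRN, ITGB5 and LAMA5 came next at 22.0, 21.4 and 18.5 FPKM, and their library ranges overlapped from each gene to the next. In all, 10 of the 87 genes had a mean of at least 10 FPKM and 22 had a mean of at least 1 FPKM. The other end of the list was near silence. The 47 genes under the minimum had a median of 13 solved reads over the 4 libraries together, 19 of them had fewer than 10, and COL20A1 was listed at 0 in every library.

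**Figure D1:**
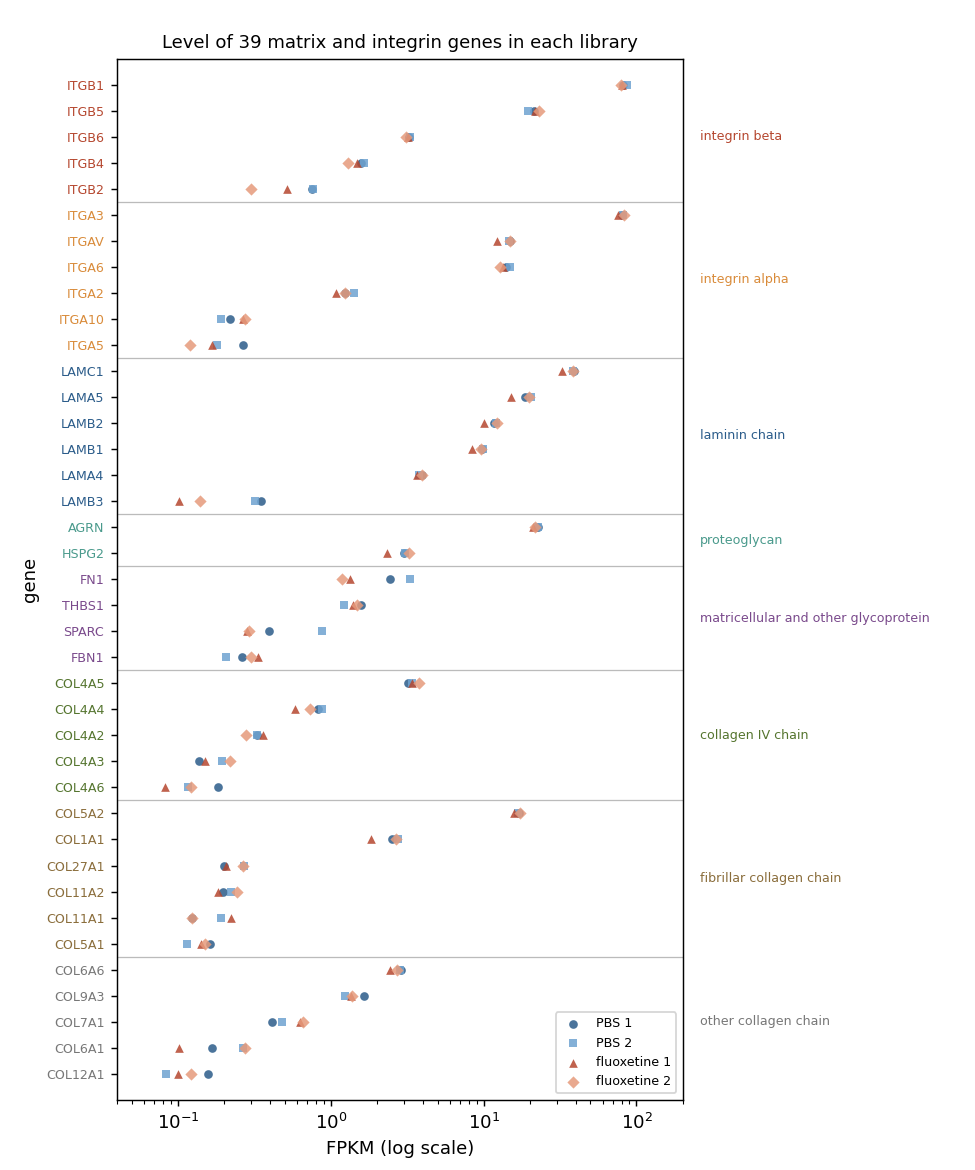
FPKM on a log scale (x axis) of 39 of the 40 genes with a mean of at least 0.1 FPKM (y axis), grouped by role, with 1 point for each of 2 PBS and 2 fluoxetine libraries. ITGB1 and ITGA3 have the highest values, near 80 FPKM in all libraries, and fluoxetine 1 is the lowest point in 19 of the 39 genes drawn.

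FN1 was the 1 gene of the 40 that passed the test (adjusted p under 0.05, limma on log2(FPKM + 0.1), adjusted over all 12663 genes tested), beside a background of 0.237% of all genes tested. Without an adjustment, 4 of the 40 and 1078 of all genes tested had a limma p under 0.05. Both fluoxetine libraries lay below both PBS libraries in 13 of the 40 genes (32.5%), against 24.8% of all genes tested, and above them in 4 genes, against 16.7%. The median log2 fold change was -0.09 over the 40 genes and -0.02 over all genes tested.

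The library fluoxetine 1 had the lowest value of the 4 in 20 of the 40 genes and in 33.0% of all genes tested. Without it, the median log2 fold change of the 40 genes was 0.0017. How far a gene lay from its own average in a library was also set against its log2 length, as a description across genes, which are not replicates. Over all genes Pearson's r was -0.28 in fluoxetine 1, 0.19 in PBS 2, 0.056 in PBS 1 and 0.046 in fluoxetine 2. The 40 genes are long, with a median of 7099.5 bases against 3850 bases for all genes. Within the 40 genes alone r was 0.16 in fluoxetine 1, 0.35 in fluoxetine 2, -0.27 in PBS 1 and -0.26 in PBS 2. With the length trend removed from each library, 6 of the 40 genes were lower and 5 higher with no overlap, against 20.0% and 19.5% of all genes under the same scaling. Quantile normalization gave 9 lower and 6 higher, against 19.8% and 19.3% of all genes, and centring each library on its median gave 10 and 5, against 19.9% and 21.3%.

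**Figure D2:**
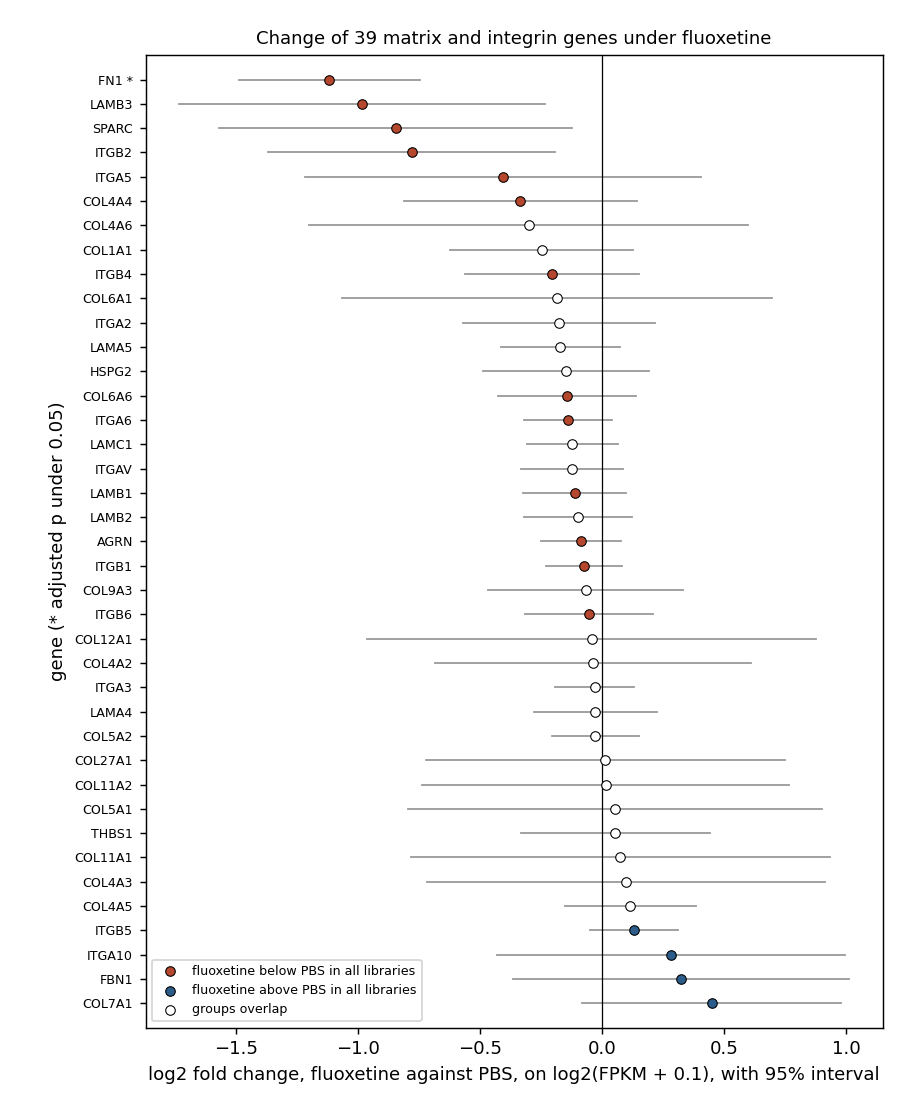
Log2 fold change of fluoxetine against PBS on log2(FPKM + 0.1) with its 95% interval from limma (x axis) for the same 39 genes (y axis), with filled points where the 2 fluoxetine libraries do not overlap the 2 PBS libraries. The interval of FN1 runs from -1.49 to -0.75, and the intervals of LAMB3, SPARC and ITGB2 also lie below 0 although their adjusted p are above 0.05.

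FN1 fell. It encodes fibronectin, the glycoprotein that cells assemble into fibrils through ITGA5 with ITGB1. FN1 (ENSG00000115414) lies at chr2:215360440-215436172 on the minus strand (GRCh38, GENCODE 29). Its level was 2.46 and 3.30 FPKM with PBS, from 702 and 996 reads, and 1.33 and 1.19 FPKM with fluoxetine, from 403 and 360 reads. Both fluoxetine libraries were lower than either PBS library, and the PBS libraries were further apart than the fluoxetine libraries. The group means were 2.88 ± 0.594 FPKM and 1.26 ± 0.101 FPKM (SD, n = 2 in each), and limma gave a log2 fold change of -1.12 with a standard error of 0.17 (adjusted p = 0.0181). The adjusted p ranged from 2.3e-09 to 0.656 over 16 alternatives and was under 0.05 in 8 of them. It was 0.538 with no minimum on FPKM, 0.328 without the variance trend, 0.0783 after quantile normalization and 0.0987 with the length trend removed. No library could be left out with the call kept. The adjusted p was then 0.165 without PBS 1, 0.656 without PBS 2, 0.103 without fluoxetine 1 and 0.159 without fluoxetine 2, and the log2 fold change stayed between -1.32 and -0.91. For 1 gene alone, the smallest p that an exact two-sided permutation test of 2 against 2 allows is 0.333.

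The 250 bases before the RefSeq start of FN1 (GRCh38.p14, chr2:215436069-215436318, minus strand) are shown because FN1 was the gene that passed the test. Capitals mark the palindrome TGACGTCA, the letters of the cyclic AMP response element, and CCAAT. TGACGTCA was in 1 of the 63 genes of the set with a RefSeq promoter and in 1.65% of all 35116 promoters of this length, and CCAAT or its complement ATTGG was in 16 of the 63 and in 32.0% of all. GGGCGG or its complement CCGCCC was also in this window, in 41 of the 63 and in 42.6% of all. A gene was counted if any of its promoters had the letters, whereas the share of all is by single promoter. Genes with several promoters thus had more chances of a match. Both strands were searched, and a match of letters is a description and not a site.
FN1: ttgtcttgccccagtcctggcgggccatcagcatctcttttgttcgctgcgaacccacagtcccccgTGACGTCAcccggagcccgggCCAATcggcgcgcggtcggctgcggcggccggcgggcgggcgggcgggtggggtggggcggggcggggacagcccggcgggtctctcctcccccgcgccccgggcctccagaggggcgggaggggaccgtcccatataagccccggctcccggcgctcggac

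The other glycoproteins held lower levels. SPARC, a secreted protein that binds collagen and modulates adhesion, was at 0.397 and 0.875 FPKM with PBS and at 0.283 and 0.291 FPKM with fluoxetine. PBS 2 alone was more than 2 times as high as any other library, with 105 reads against 45, 34 and 35. The log2 fold change was -0.85 with an interval from -1.57 to -0.12 (adjusted p = 0.536 by limma), and without PBS 2 it was -0.36. Low collagen chains, chosen after their values were seen, did not share an order of the libraries. COL3A1 had 0 reads in PBS 1, 34 in PBS 2, and 9 and 5 in the fluoxetine libraries, and COL1A2 had 0, 11, 1 and 1. In contrast, COL5A1 had 57, 43, 53 and 56 reads and COL12A1 had 61, 34, 41 and 50 in the same order, with PBS 2 the lowest in both. FN1 was also highest in PBS 2, and its own values without that library are given above.

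THBS1, which encodes thrombospondin, an adhesive protein of the pericellular matrix, showed 1.58 and 1.23 FPKM with PBS and 1.41 and 1.49 FPKM with fluoxetine. Its groups overlapped, with an interval of the log2 difference from -0.33 to 0.44. FBN1, the fibrillin of microfibrils, was at 0.262 and 0.206 FPKM with PBS and 0.334 and 0.299 FPKM with fluoxetine, with no overlap but a log2 fold change of 0.32 (adjusted p = 0.762 by limma). TNC, an adhesion-modulating glycoprotein, and VCAN, a large proteoglycan, were under the minimum, with TNC between 0.0376 and 0.110 FPKM and VCAN between 0.00698 and 0.0302 FPKM.

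Among integrin beta subunits, 4 of the 5 tested were lower and 1 was higher with no overlap, beside 24.8% and 16.7% of all genes tested, and none passed the test. ITGB1 was at 81.4 and 86.8 FPKM with PBS and at 80.8 and 78.7 FPKM with fluoxetine. The log2 fold change was -0.08, with an interval from -0.23 to 0.08. ITGB5, which pairs with ITGAV to bind vitronectin, showed the opposite order, at 21.5 and 19.4 FPKM with PBS and 21.7 and 23.1 FPKM with fluoxetine. Its log2 fold change was 0.13 with an interval from -0.05 to 0.31. In both of these abundant subunits the difference between the group means was close to the spread between the PBS libraries.

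ITGB6, the epithelial partner of ITGAV that activates latent TGF-beta, was at 3.23 and 3.28 FPKM with PBS and 3.18 and 3.09 FPKM with fluoxetine. ITGB4, which joins ITGA6 in hemidesmosomes, was at 1.57 and 1.66 FPKM with PBS and 1.48 and 1.30 FPKM with fluoxetine. The log2 fold change of ITGB6 was -0.05 and that of ITGB4 was -0.21, both with intervals that hold 0. ITGB2, the beta subunit of the leukocyte integrins, was at 0.755 and 0.760 FPKM with PBS, which is 78 and 83 reads, and at 0.521 and 0.302 FPKM with fluoxetine, which is 57 and 33 reads. Its log2 fold change of -0.78 had an interval from -1.37 to -0.19 (adjusted p = 0.497 by limma), and it was -0.47 without fluoxetine 2 and -1.09 without fluoxetine 1. Of its alpha partners, ITGAL, ITGAM and ITGAX had at most 5 reads in any library. ITGB3, ITGB7 and ITGB8 were under the minimum.

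ITGA3 made up 72.3% ± 0.0516 of the summed FPKM of the 15 integrin alpha genes matched by symbol with PBS and 73.6% ± 0.377 with fluoxetine (SD, n = 2 in each). ITGA3 itself was at 80.1 and 81.7 FPKM with PBS and 75.5 and 83.0 FPKM with fluoxetine, so that the fluoxetine libraries held both the lowest and the highest value. ITGA6, another laminin receptor, was at 14.0 and 14.8 FPKM with PBS and 13.4 and 12.7 FPKM with fluoxetine. Its log2 fold change was -0.14 with an interval from -0.32 to 0.04, and the groups did not overlap.

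ITGAV, the alpha subunit of receptors for proteins with an RGD motif, was at 14.8 and 14.6 FPKM with PBS and 12.3 and 14.8 FPKM with fluoxetine, where only fluoxetine 1 was low. ITGA2, a collagen receptor with ITGB1, was at 1.24 and 1.42 FPKM with PBS and 1.08 and 1.25 FPKM with fluoxetine, with overlap. ITGA5, the fibronectin receptor, was far lower at 0.268 and 0.180 FPKM with PBS and 0.166 and 0.120 FPKM with fluoxetine, from 18 to 38 reads a library. ITGA10, a collagen receptor of cartilage, was at 0.220 and 0.192 FPKM with PBS and 0.266 and 0.276 FPKM with fluoxetine. The last pair moved in opposite directions by -0.41 and 0.28 on the log2 scale, with intervals that hold 0 and standard errors of 0.37 and 0.33. The other 9 alpha subunits of the set were under the minimum.

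The laminin chains formed an abundant set and a sparse one. LAMC1 made up 99.6% ± 0.137 of the summed FPKM of the gamma chains with PBS and 99.8% ± 0.0897 with fluoxetine, and LAMA5 made up 83.2% ± 1.52 and 81.6% ± 1.97 of that of the alpha chains (SD, n = 2 in each). LAMB2 and LAMB1, the beta chains, were close to each other, with LAMB2 between 1.19 and 1.26 times as high as LAMB1 in every library. All 7 laminin chains tested had a log2 fold change below 0, as did 56.5% of all genes tested. The groups did not overlap in 2 of the 7, beside 24.8% of all genes that were lower in this way, and none passed the test.

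In the abundant set the low value was mostly that of fluoxetine 1. LAMC1 was at 39.2 and 38.2 FPKM with PBS and 32.7 and 38.6 FPKM with fluoxetine. LAMA5, the alpha chain of mature epithelial basement membranes, was at 18.6 and 20.6 FPKM with PBS and 15.2 and 19.8 FPKM with fluoxetine. LAMB2 was at 11.7 and 11.99 FPKM with PBS and 10.02 and 12.2 FPKM with fluoxetine. In these 3 genes fluoxetine 2 lay above the lower of the PBS libraries, and fluoxetine 1 lay below both. LAMB1 was at 9.72 and 9.86 FPKM with PBS and 8.44 and 9.69 FPKM with fluoxetine, and LAMA4, an alpha chain of vessel and muscle basement membranes, varied only from 3.67 to 3.98 FPKM. The log2 fold changes were -0.12 for LAMC1, -0.17 for LAMA5, -0.10 for LAMB2, -0.11 for LAMB1 and -0.03 for LAMA4, with intervals that hold 0. Without fluoxetine 1, those of LAMA5, LAMB2 and LAMA4 were 0.016, 0.041 and 0.024, and those of LAMC1 and LAMB1 were -0.0054 and -0.015.

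The sparse set contained LAMB3 and LAMA3, chains of the laminin that anchors basal cells of skin and prostate. LAMB3 was at 0.352 and 0.320 FPKM with PBS and at 0.102 and 0.141 FPKM with fluoxetine. The smallest whole read numbers that fit were 26 and 25 against 8 and 11, and the true reads may be a multiple. Both fluoxetine libraries were less than 0.5 times either PBS library, with a log2 fold change of -0.98 and an interval from -1.73 to -0.23 (adjusted p = 0.511 by limma). LAMA3 was under the minimum and had its higher values with fluoxetine, at 0.0484 and 0.0381 FPKM with PBS and 0.0761 and 0.0811 FPKM with fluoxetine. LAMB3 and LAMA3 thus did not share a direction, at levels of few solved reads.

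Each basement membrane proteoglycan was close between the PBS libraries. AGRN, agrin, was at 22.7 and 22.6 FPKM with PBS and 20.9 and 21.7 FPKM with fluoxetine. Its log2 fold change was -0.09, with an interval from -0.25 to 0.07. HSPG2, perlecan, was at 3.03 and 3.07 FPKM with PBS and at 2.32 and 3.23 FPKM with fluoxetine, so that the fluoxetine libraries lay on either side of PBS.

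**Figure D3:**
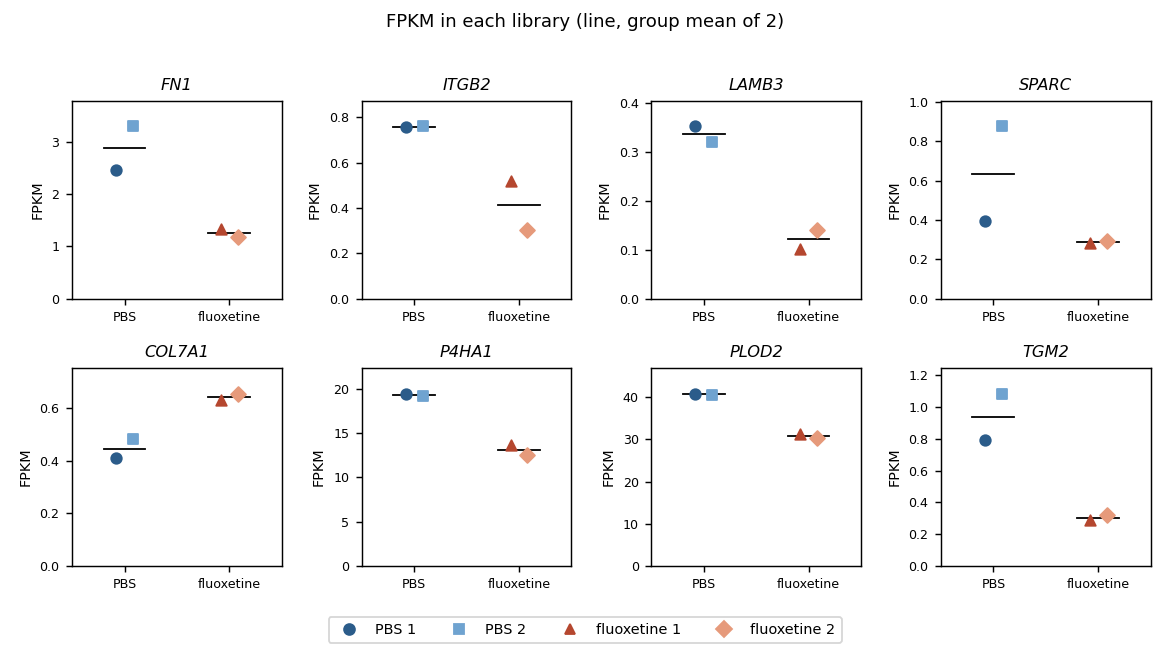
FPKM (y axis, from 0) in each of 2 PBS and 2 fluoxetine libraries (x axis) for 5 genes of the matrix and integrin set and 3 enzymes that modify or crosslink matrix proteins, with the group mean as a line. FN1 and P4HA1 passed the test, and SPARC is high in PBS 2 alone.

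Collagen chains were expressed unevenly within a type. COL5A2 was the highest of all collagen chains, at 17.0 and 16.8 FPKM with PBS and 15.8 and 17.4 FPKM with fluoxetine. It held 54.7% ± 1.07 of the summed collagen FPKM with PBS and 55.6% ± 1.13 with fluoxetine (SD, n = 2 in each). COL5A1, with which COL5A2 forms the common collagen V trimer, was between 105 and 145 times lower per length in the same library. COL1A1 was at 2.53 and 2.75 FPKM with PBS and 1.83 and 2.66 FPKM with fluoxetine, while COL1A2, its partner in collagen I, had 0 to 11 reads a library. The same held for minor types. COL9A3 was at 1.65 and 1.23 FPKM with PBS and 1.35 and 1.37 FPKM with fluoxetine, and the mean of COL9A1 was 26.1 times lower. COL6A6, a collagen VI chain that can stand in for COL6A3, was at 2.87 and 2.85 FPKM with PBS and 2.46 and 2.70 FPKM with fluoxetine, against 0.102 to 0.273 FPKM for COL6A1, which every collagen VI trimer is held to need. COL6A3 had at most 8 reads in any library. No collagen chain passed the test.

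**Figure D4:**
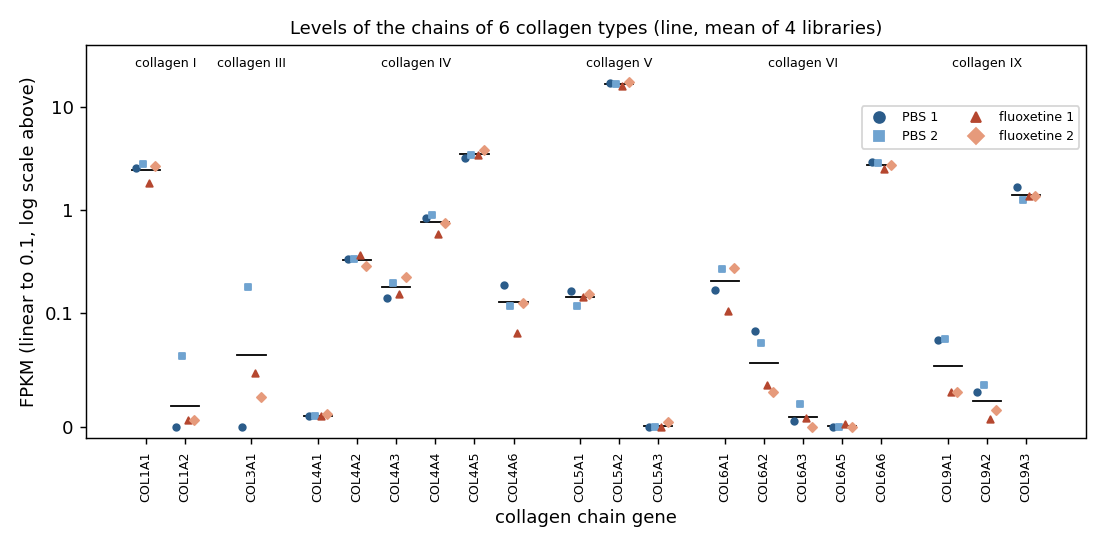
FPKM (y axis, linear to 0.1 and log above) of the chain genes (x axis) of 6 collagen types, with 1 point per library and a line at the mean of the 4 libraries. In collagen I, V, VI and IX 1 chain stands above its partners in both groups, and COL3A1 and COL1A2 are highest in PBS 2.

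Collagen IV, the sheet-forming collagen of basement membranes, is encoded by 3 pairs of genes that are read away from each other from neighbouring starts. The chain that is the common one in most tissues, COL4A1, had a mean of 0.00981 FPKM, with 5, 5, 5 and 6 reads. COL4A2, whose start lies 127 bases from that of COL4A1 on chromosome 13 in RefSeq, had 63 to 81 reads, and its mean was 33.2 times that of COL4A1 per length. The gene models of the pair overlap at their starts, and it is not given in the sources used here whether counting used strand, so that reads there could not be assigned with certainty. COL4A4 was 3.34 to 6.02 times as high as COL4A3, from a start 419 bases away on chromosome 2, and COL4A5 was 17.4 to 41.4 times as high as COL4A6, from a start 380 bases away on chromosome X. In each of the 3 pairs, all 4 libraries thus showed the same gene above its neighbour.

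The sequence between the starts of COL4A1 and COL4A2 is shown because both genes are read from it and only COL4A2 reached the minimum. It is chr13:110307158-110307283, read on the plus strand (GRCh38.p14, RefSeq), with COL4A1 leaving to the left and COL4A2 to the right. Capitals mark CCAAT and GGGCGG.
COL4A1 to COL4A2: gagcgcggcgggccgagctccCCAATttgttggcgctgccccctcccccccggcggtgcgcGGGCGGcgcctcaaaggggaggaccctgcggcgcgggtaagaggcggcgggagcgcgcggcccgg

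None of the 5 collagen IV chains tested passed the test. COL4A5 was at 3.20 and 3.42 FPKM with PBS and 3.39 and 3.80 FPKM with fluoxetine. It held 68.7% ± 0.611 of the summed collagen IV FPKM with PBS and 73.8% ± 0.407 with fluoxetine (SD, n = 2 in each). COL4A4 was at 0.829 and 0.879 FPKM with PBS and 0.583 and 0.736 FPKM with fluoxetine, the 1 collagen IV chain with no overlap between groups. The log2 fold changes were 0.12 for COL4A5, -0.34 for COL4A4, -0.04 for COL4A2, 0.10 for COL4A3 and -0.30 for COL4A6. All 5 intervals hold 0, and those of the low chains are wide, from -1.20 to 0.60 for COL4A6 and from -0.69 to 0.61 for COL4A2. COL7A1, which forms the anchoring fibrils under squamous epithelia, was at 0.410 and 0.481 FPKM with PBS and 0.631 and 0.655 FPKM with fluoxetine, from 126 and 156 reads against 205 and 213. It had the largest positive log2 fold change of the 40 genes at 0.45 (interval from -0.08 to 0.98, adjusted p = 0.613 by limma).

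Genes that act on the matrix were counted in 5 further lists. Of 22 tested enzymes that modify collagen or crosslink matrix, 1 passed the test, 11 were lower and 4 higher with no overlap, and the median log2 fold change was -0.11. Of 16 tested matrix proteases and inhibitors none passed, 8 were lower and 1 higher, with a median of -0.10. Of 31 other matrix proteins none passed, 11 were lower and 0 higher, with a median of -0.16. Of 18 other matrix receptors none passed, with 3 lower, 3 higher and a median of -0.03, and of 37 integrin adaptors and focal adhesion genes none passed, with 12 lower, 6 higher and a median of -0.06. The backgrounds are those given above, 24.8% lower and 16.7% higher. The 5 lists were counted in the main test alone. Whether their counts hold with the length trend removed or under another scaling was not tested.

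The enzyme that passed the test was P4HA1, the catalytic alpha subunit of the prolyl hydroxylase that gives collagen its hydroxyproline. P4HA1 lies at chr10:73007217-73096974 (GRCh38, GENCODE 29) and was at 19.5 and 19.3 FPKM with PBS and 13.7 and 12.6 FPKM with fluoxetine, from 1863 and 1947 reads against 1386 and 1273. The groups did not overlap, and the spread within each was small against the difference. Limma gave a log2 fold change of -0.56 with a standard error of 0.08 (adjusted p = 0.0170). Its adjusted p was between 3.84e-05 and 0.420 over 16 alternatives and under 0.05 in 9 of them, and without 1 library it was between 0.0567 and 0.405. P4HB, the other subunit of the same enzyme and a disulfide isomerase, was at 361 and 352 FPKM with PBS and 359 and 356 FPKM with fluoxetine. The log2 fold change of P4HB was 0.0042 with a standard error of 0.08.

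A pair of enzymes near the threshold was chosen after their values were seen. PLOD2, a lysyl hydroxylase that prepares collagen for crosslinking, was at 40.9 and 40.5 FPKM with PBS and 31.4 and 30.4 FPKM with fluoxetine, with a log2 fold change of -0.40 (adjusted p = 0.0510 by limma). TGM2, a transglutaminase that crosslinks fibronectin among other substrates, was at 0.794 and 1.09 FPKM with PBS and 0.290 and 0.317 FPKM with fluoxetine, with a log2 fold change of -1.35 (adjusted p = 0.0616 by limma). In both, each fluoxetine library was below each PBS library, as in 11 of the 22 enzymes tested and 24.8% of all genes tested. Because the pair was chosen by its values, this order adds no support.

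The 250 bases before the RefSeq start of P4HA1 (GRCh38.p14, chr10:73096867-73097116, minus strand) are shown because it was the 1 gene of these lists that passed the test. Capitals mark CACGT, the complement of ACGTG, which is the core bound by hypoxia-inducible factors. ACGTG on either strand was in 8 of the 63 matrix and integrin genes with a RefSeq promoter and in 18.5% of all 35116 promoters. P4HA1 is not among these 63. Genes were counted by any of their promoters, as above, and ACGTG was not in the FN1 window. The match is again of letters and not a site, and whether it bears on the level of P4HA1 was not tested.
P4HA1: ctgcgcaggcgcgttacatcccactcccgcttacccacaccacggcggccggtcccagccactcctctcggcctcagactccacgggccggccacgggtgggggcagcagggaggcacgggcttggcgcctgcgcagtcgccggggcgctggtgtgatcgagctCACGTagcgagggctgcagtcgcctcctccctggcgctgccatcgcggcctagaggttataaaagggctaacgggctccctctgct

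The most abundant genes of each list did not pass the test. Among proteases and inhibitors, ADAM15, a membrane disintegrin, was at 54.4 ± 4.42 FPKM with PBS and 57.0 ± 2.66 FPKM with fluoxetine (SD, n = 2 in each). TIMP2, a metalloproteinase inhibitor, was at 14.6 ± 0.795 FPKM with PBS and 13.1 ± 0.863 FPKM with fluoxetine. SMOC1 and LTBP3, a calcium-binding matrix protein and a TGF-beta binding protein, had log2 fold changes of -0.13 and -0.02. CD151, the tetraspanin that associates with ITGA3, and DDR1, a collagen receptor kinase, had log2 fold changes of 0.15 and 0.01. ACTN4, an actinin that links integrins to actin, and HAX1, which binds the tail of ITGB6, had -0.12 and 0.15. PPIB, a prolyl isomerase of collagen folding, was at 413 ± 17.1 FPKM with PBS and 461 ± 34.8 FPKM with fluoxetine (SD, n = 2 in each). None of these 9 genes had an adjusted p under 0.05 in limma, and the lowest was 0.579.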

How the data were processed

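The authors deposited 1 table of FPKM for 4 libraries of LASCPC-01 cells. The submitters' processing notes name fastp, HISAT2, HTSeq and the build GRCh38, and the annotation behind the gene lengths is not given in the sources used here. The library kit is TruSeq Stranded mRNA in the labels and VAHTS in the methods. Groups came from the treatment labels.

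FPKM are not counts, so limma 3.58.1 (R 4.3.3) was fitted to log2(FPKM + 0.1) with trended eBayes. It used the 12663 genes whose mean reached 0.1 FPKM, with Benjamini-Hochberg adjustment over all of them. A pseudocount understates the change of low genes. Reads and depth were solved from the FPKM (whole to 0.004 plus rounding) for 16009 of the 16080 genes above 0. The depth rests on 102 genes whose GENCODE 29 length gave the same value, against 9 for the next. Intervals of limma are 95% intervals, unadjusted. Replicates had Pearson r of 0.993 in PBS and 0.994 in fluoxetine on the log2 scale, and differed by more than sampling noise (chi-square per degree of freedom of 8.38 and 10.1). The limma script was tested on values drawn independently from each gene's mean and fitted spread. This checks the code and not the calls made here.

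The genes and lists were chosen with earlier results of these data known. Genes were named by the test, by being among the 25 highest in FPKM or the 10 largest changes with no overlap, by their symbol in the rule, or, in the 5 other lists, by the test or as the 2 highest. Alternatives were pseudocounts of 1 and 0.01, no minimum or a minimum of 1 FPKM, TPM, quantile normalization, median centring, no variance trend, robust moderation, a replicate block, voom on the solved reads (at least 10 over the libraries) and each library left out. Removing the gene length trend (lowess with a span of 0.3) was chosen after seeing the data. RefSeq promoters were found for 63 of the 87 genes. Tables and figures were made in Python 3.11.15. Some results are not reported here.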

Additional observations from a re-analysis of the deposited data

How the results depend on the processing

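The count of matrix and integrin genes that passed the test was 0 with no minimum on FPKM, after quantile normalization, without the variance trend, and with the gene length trend removed (alone and with the replicate block), and 0 to 0 with 1 library left out. The replicate numbers do not pair the libraries by any label, and the deviations of libraries with the same number correlated at 0.035. With the replicate block 1 of the 40 genes passed, as without it, and 64 genes in all against 30. The genes lower with no overlap, 13 in the main test, were 23 of 86 with no minimum and 8 of 22 with a minimum of 1 FPKM. They were 6 with the length trend removed and 14 to 27 with 1 library left out. Of all genes tested in these settings, 23.5%, 24%, 20% and 36.3% to 43.3% were lower in this way. The matrix and integrin genes higher with no overlap, 4 in the main test, were 10 with no minimum and 1 with a minimum of 1 FPKM. They were 11 of 68 with voom and 6 to 12 with 1 library left out. Of all genes tested in these settings, 14.7%, 17.9%, 17.2% and 29.1% to 32.8% were higher in this way. The median log2 fold change ran from -0.12 to 0.0017 with 1 library left out. All genes tested that passed numbered 0 with no minimum, 0 without the variance trend, 16 after quantile normalization, 66 with voom, and 2 without PBS 1, 3 without PBS 2, 9 without fluoxetine 1 and 12 without fluoxetine 2. With no minimum and without the variance trend, 1069 and 933 genes had an unadjusted p under 0.05.

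Of 43 genes with a fold change given, 17 changed sign under an alternative, none of them called. With the length trend removed the log2 fold change was 0.0071 for ITGA3, 0.041 for COL5A2, 0.049 for LAMA4, 0.0036 for COL6A6, 0.022 for COL4A2, -0.021 for P4HB and 0.029 for LTBP3. After quantile normalization it was 0.031 for LAMA4, 0.022 for ITGB6, 0.019 for COL9A3, 0.090 for COL4A2, -0.061 for P4HB and -0.0082 for DDR1. As TPM it was -0.044 for P4HB and -0.037 for DDR1, and with median centring 0.011 for LTBP3. With 1 library left out, the values ran from -0.099 to 0.037 for ITGA3, -0.36 to 0.016 for LAMA5, -0.096 to 0.040 for COL5A2, -0.25 to 0.0088 for ITGAV, -0.24 to 0.041 for LAMB2, -0.080 to 0.024 for LAMA4, -0.38 to 0.082 for HSPG2, -0.51 to 0.013 for COL1A1, -0.12 to 0.22 for THBS1, -0.27 to 0.13 for COL9A3, -0.18 to 0.099 for COL4A2, -0.079 to 0.28 for COL4A3, -0.014 to 0.022 for P4HB and -0.048 to 0.017 for LTBP3. The adjusted p of PLOD2 by limma was under 0.05 in 5 of 16 alternatives and that of TGM2 in 3 of 15. The adjusted p of PLOD2 and TGM2 were 0.0174 and 0.0185 with the replicate block, and 0.0390 and 0.0493 with robust moderation. They were 0.436 and 0.233 without the variance trend, and 0.0783 and 0.173 after quantile normalization. The cause was not tested. With 1 library left out, the lone library is assumed to vary like the others. With few solved reads, as for LAMB3 and ITGA5, only large differences could be seen.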
